A study of Sus scrofa with 6 samples.

Results

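The 3 NR4A nuclear receptors and 7 immediate early genes, 10 genes in all (NR4A1, NR4A2, NR4A3, FOS, FOSB, JUN, JUNB, EGR1, ATF3 and IER2), were followed in the ventricular myocardium of minipigs with and without chronic pressure overload. The genes were chosen by name, with the higher NR4A3 level after aortic constriction already known. Of the 10, 8 had a row in the table of 13288 genes, and 7 of these passed the filter that left 11029 genes for the comparison of the groups. FOSB was listed but did not pass the filter, and no row carried the name JUN or IER2.

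RNA was sequenced from 3 sham and 3 DAC Tibetan minipigs, all male. In the DAC (descending aortic constriction) group, sutures narrowed the thoracic descending aorta so that the left ventricle worked against a raised pressure, and the sham group had the chest opened without a constriction. Both groups were operated on under anesthesia, and the heart tissue was taken 12 weeks later, so every minipig stood at a late time point of the model. The age of the animals, the region of the ventricle that was sequenced and the interval between death and sampling are not given in the sources used here. Each library came from the tissue of 1 minipig, and the minipigs are numbered as in the labels, sham replicates 1 to 3 and then DAC replicates 4 to 6.

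Immediate early genes are transcribed within minutes of a stimulus, from promoters that are held ready for transcription factors already present in the cell, such as serum response factor and CREB. Their transcripts are short-lived, and most of them encode transcription factors that switch on a later wave of genes. FOS, FOSB, JUN and JUNB pair through leucine zippers to form the dimer AP-1, EGR1 is a zinc finger factor, and ATF3 is a stress-induced leucine zipper factor. NR4A1, NR4A2 and NR4A3 are orphan nuclear receptors whose activity is set mainly by how much of them is made. In the heart, these genes are known to respond to stretch, adrenergic stimulation and ischemia.

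The deposited values are FPKM, fragments scaled by transcript length and by the mapped fragments of the library, so levels of different genes can be set side by side. Sums of FPKM were 281377 to 308771 per sample. FPKM does not show how many reads lie behind it, so the depth is unknown. The cardiomyocyte markers were present, with 8 of 10 listed, none at 0 in a sample, and a summed level of 14420 to 15120 FPKM in the sham group and 13600 to 16650 FPKM in the DAC group. In tissue samples such as these, a different number of cells of a type and a different amount of RNA per cell cannot be told apart. The mitochondrially encoded genes held 24.0% to 25.3% of all FPKM in sham hearts and 27.1% to 32.8% in DAC hearts, highest in DAC replicate 5. For 6 of the 8 listed NR4A and immediate early genes, sham replicate 1 was at least 1.5 times each other sham sample. Results that rest on sham replicate 1 are given with and without it.

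NR4A1 and NR4A3 were among the better expressed genes tested, with mean levels above 89.9% and 91.1% of them. The mean level of NR4A2 was above 68.1% of the genes tested. NR4A3 (ENSSSCG00000005385, chromosome 1 from 241569905 to 241611734 on Sscrofa11.1) encodes the receptor also called NOR-1. It was at 28.2, 16.99 and 12.6 FPKM in the sham samples and at 37.4, 53.4 and 70.9 FPKM in the DAC samples. All DAC samples lay above all sham samples, and the highest sham value was that of sham replicate 1. The means were 19.3 ± 8.06 FPKM (SD, n = 3) in sham hearts and 53.9 ± 16.8 FPKM (SD, n = 3) in DAC hearts, a ratio of 2.80. On the scale of log2(FPKM + 1), which is used for all differences below, the DAC mean was higher by 1.47 (standard error 0.32), and by 1.77 (standard error 0.28) without sham replicate 1. This is the difference that led to the choice of the genes, so it is given as a description and not as a test. The standard errors here and below are moderated by limma, which shares variance between genes. From the variance of each gene alone, they were larger for every tested gene of the set. With all 6 samples, they were then 0.42 for NR4A3, 0.63 for NR4A1, 0.56 for FOS and 0.70 for EGR1.

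**Figure D1:**
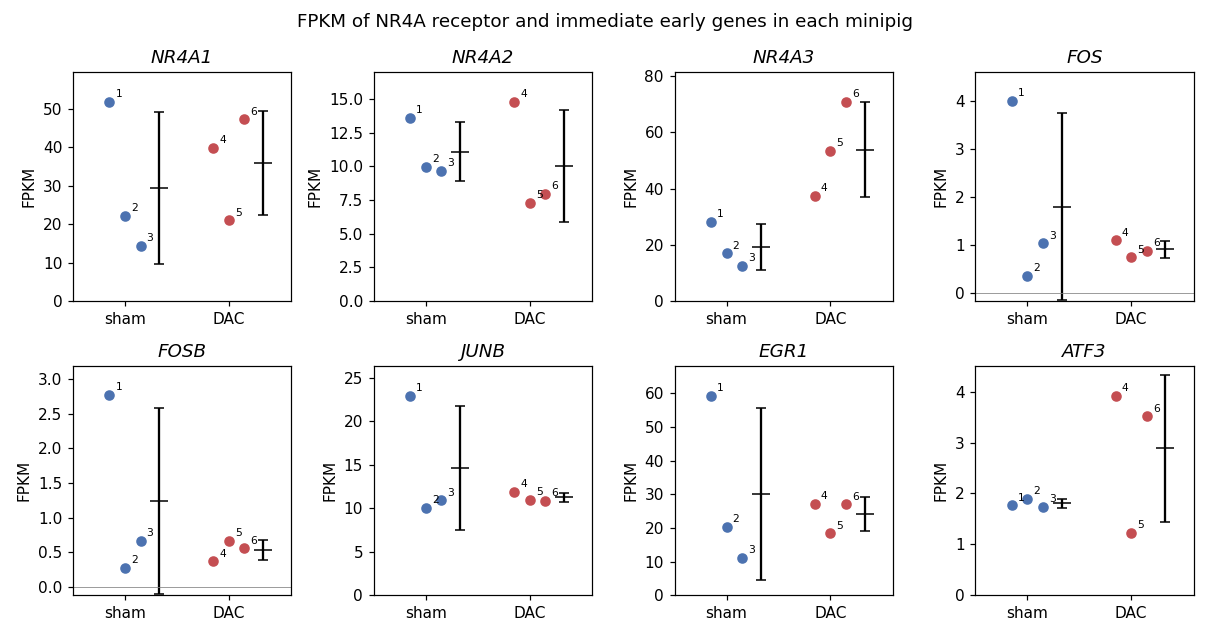
FPKM (vertical axes, linear) of the 8 listed genes in the 3 sham (blue) and 3 DAC (red) minipigs, with the replicate number beside each point and the group mean ± SD as black bars. NR4A3 is the gene whose groups do not overlap, and sham replicate 1 is the highest sham sample in 7 of the 8 panels.

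NR4A1 (ENSSSCG00000031321, chromosome 5 from 17385390 to 17408514), also known as Nur77, was at 51.9, 22.1 and 14.4 FPKM in the sham samples and at 39.9, 21.0 and 47.3 FPKM in the DAC samples. The groups overlapped, because sham replicate 1 had the highest value of all 6 samples and DAC replicate 5 the second lowest. The means were 29.5 ± 19.8 FPKM (SD, n = 3) and 36.1 ± 13.6 FPKM (SD, n = 3), a difference of 0.40 (standard error 0.48) that was 0.90 (standard error 0.36) without sham replicate 1. The NR4A1 difference was 0.74 without DAC replicate 5, but 0.17 without DAC replicate 6 and 0.0074 without sham replicate 3. The RefSeq table for Sscrofa11.1 lists NR4A1 as a pseudogene at a shorter overlapping position, while the deposited table lists it as protein-coding.

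NR4A2 (ENSSSCG00000015871, chromosome 15 from 63487698 to 63505244), or Nurr1, best known from dopamine neurons, was the lowest of the family. It was at 13.6, 9.97 and 9.66 FPKM in the sham samples and at 14.8, 7.28 and 7.96 FPKM in the DAC samples. The highest and the lowest value both belonged to DAC samples, so the groups overlapped, and the difference was -0.18 (standard error 0.26). Within the family, NR4A3 held 30.1% to 34.6% of the summed NR4A FPKM in the sham samples and 40.6%, 65.4% and 56.2% in DAC replicates 4, 5 and 6. NR4A1 exceeded NR4A3 in every sham sample and in DAC replicate 4, where the NR4A3 level was 0.937 times that of NR4A1. In DAC replicates 5 and 6 the order was turned, with NR4A3 at 2.54 and 1.499 times the NR4A1 level. The sum of the 3 receptors did not separate the groups, since sham replicate 1, at 93.7 FPKM, exceeded DAC replicates 4 and 5, at 92.1 and 81.7 FPKM.

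The AP-1 genes had their highest values in a sham minipig. FOS (ENSSSCG00000002383, chromosome 7 from 98449349 to 98455554) was at 4.01, 0.360 and 1.04 FPKM in the sham samples and at 1.10, 0.748 and 0.889 FPKM in the DAC samples. The value of sham replicate 1 was 3.85 times that of the next sham sample, and the DAC values lay between those of the other sham samples or just above them. FOSB (ENSSSCG00000031616, chromosome 6 from 51837719 to 51844531) was at 2.77, 0.283 and 0.667 FPKM in the sham samples and at 0.374, 0.665 and 0.557 FPKM in the DAC samples. FOSB thus had the same single high sample, at 4.16 times the next sham value, while all of its other values were under 1 FPKM. JUNB (ENSSSCG00000013735, chromosome 2 from 66214594 to 66215637), an AP-1 partner of FOS, was at 22.9, 10.1 and 10.9 FPKM in the sham samples and at 11.9, 11.01 and 10.9 FPKM in the DAC samples. Without sham replicate 1, the remaining 5 JUNB values lay within 2 FPKM of each other. The JUNB position overlaps that of HOOK2 on the other strand, which was at 0.790 to 1.78 FPKM, and whether reads were counted by strand is not given in the sources used here.

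With all 6 minipigs, the differences of the 3 AP-1 genes were -0.33 (standard error 0.43) for FOS, -0.39 (standard error 0.37) for FOSB, taken from the fit without a filter, and -0.26 (standard error 0.28) for JUNB. Without sham replicate 1, the sign turned to 0.20 (standard error 0.21) for FOS and to 0.09 (standard error 0.12) for JUNB. For FOSB, the ratio of the DAC mean to the sham mean was 0.429 with and 1.12 without that sample. The lower mean levels of FOS, FOSB and JUNB in the DAC group therefore rested on 1 sham minipig. No row was named JUN. The table lists an unnamed long non-coding RNA whose position, chromosome 6 from 153685684 to 153687643, overlaps that of JUN in RefSeq, at 0.402 to 0.944 FPKM, and it was not taken as JUN. No row overlapped the RefSeq position of IER2.

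EGR1 (ENSSSCG00000014336, chromosome 2 from 140441421 to 140445296), a zinc finger factor induced by growth factors and stretch, was at 59.2, 20.4 and 11.1 FPKM in the sham samples and at 27.2, 18.5 and 27.0 FPKM in the DAC samples. Sham replicate 1 was again the highest of all 6 samples, at 2.91 times the next sham value, and sham replicate 3 was the lowest. The difference between the groups was -0.01 (standard error 0.53) with sham replicate 1 and 0.63 (standard error 0.29) without it. Its sign depended on the scaling, since it was 0.02 with median scaling and 0.05 with quantile normalization. ATF3 (ENSSSCG00000015595, chromosome 9 from 130770428 to 130787462) showed another pattern, with 1.77, 1.90 and 1.74 FPKM in the sham samples and 3.91, 1.23 and 3.51 FPKM in the DAC samples. DAC replicates 4 and 6 lay above all sham samples and DAC replicate 5 below all of them. The ATF3 difference was 0.39 (standard error 0.29) in all 6 samples and 0.75 (standard error 0.12) without DAC replicate 5. It was 0.18 (standard error 0.29) without DAC replicate 4 and 0.24 (standard error 0.32) without DAC replicate 6.

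**Figure D2:**
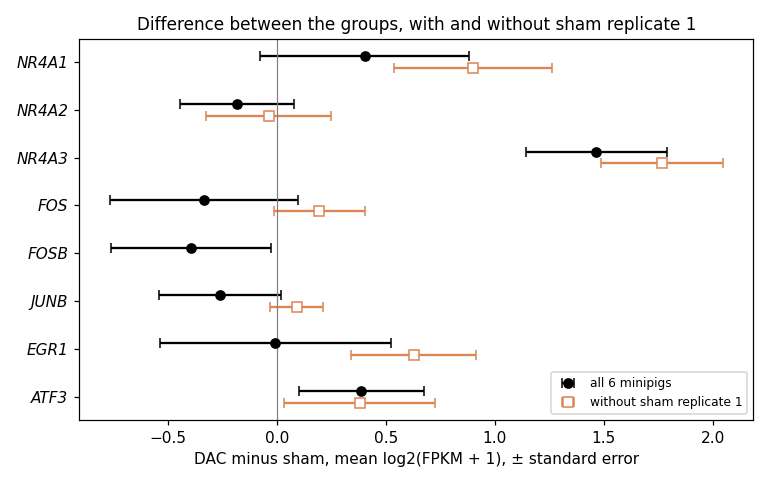
DAC minus sham difference of mean log2(FPKM + 1) for each gene (horizontal axis), in all 6 minipigs (black circles) and without sham replicate 1 (open squares). Bars are 1 moderated standard error. FOSB is shown for all 6 minipigs alone, from the fit without a filter. The NR4A3 difference is 1.47 and 1.77, while those of FOS, JUNB and EGR1 change sign.

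Of the 7 tested genes, 1 was called higher in the DAC group by limma at an unadjusted P under 0.05, the threshold of the study, beside 3.25% of all genes tested. That gene was NR4A3, by which the set was chosen, so nothing is read from the count. None of the 7 was called lower by limma at this threshold, beside 5.27% of all genes tested, so that 1 of 7 was called in either direction beside 8.51%. After adjustment over all 11029 genes by the Benjamini-Hochberg method no gene of the table had P under 0.05, and the smallest adjusted P from limma was 0.106. The groups did not overlap in 1 of the 7 genes, again NR4A3, beside 14.9% of all genes tested in either direction. All DAC values lay above all sham values in 6.01% of the genes and below them in 8.91%. The median difference of the 7 genes was -0.01 beside -0.02 for all genes tested, and it was 0.38 without sham replicate 1. Leaving out 1 sample brought a second member past the threshold in 3 cases. Without sham replicate 1, 2 of the 7 genes, NR4A1 and NR4A3, were called higher, beside 2.19% of all genes tested, and 0 were called lower by limma, beside 3.26%. The other cases were ATF3, higher without DAC replicate 5, and NR4A2, lower without DAC replicate 4 with a difference of -0.47 (standard error 0.17). Sham replicate 1 was singled out after it was seen to be high for most of these genes. Leaving it out raises their differences in itself, so nothing is read from the count or the median without it.

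In order of level, the sham means ran from EGR1 (30.2 FPKM) and NR4A1 (29.5 FPKM) over NR4A3 (19.3 FPKM), JUNB (14.6 FPKM) and NR4A2 (11.1 FPKM) to ATF3 (1.80 FPKM), FOS (1.80 FPKM) and FOSB (1.24 FPKM). Neighbours in this order overlapped over the sham samples, except that all NR4A2 values lay above all ATF3 values. In the DAC group NR4A3 (53.9 FPKM) came first, before NR4A1 (36.1 FPKM), EGR1 (24.2 FPKM), JUNB (11.3 FPKM), NR4A2, ATF3 (2.88 FPKM), FOS (0.913 FPKM) and FOSB (0.532 FPKM). The DAC values of NR4A3 and NR4A1 overlapped, as did those of NR4A1 and EGR1 and those of JUNB and NR4A2, and the other neighbours did not. The mean NR4A3 level over all 6 samples was above that of 91.1% of the genes tested, and that of FOS was above 6.55% of them.

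The spread between minipigs of the same group is a measure that the choice of the genes did not use. Each of the 7 tested genes had a larger SD within the groups than most genes, at 0.40 for NR4A2 to 0.86 for EGR1, and their median was 0.51 beside 0.18 for all genes tested. The share of tested genes with a smaller SD was 90.6% for NR4A2, 92.7% for JUNB, 93.0% for ATF3, 95.2% for NR4A3, 98.1% for FOS, 98.7% for NR4A1 and 99.1% for EGR1. This is a description of 6 libraries, and genes that vary together are not independent of each other. Without sham replicate 1 the median SD of the 7 genes was 0.41. The SD of JUNB was then 0.07 in place of 0.44, larger than that of 7.91% of the genes tested. That of FOS was 0.26 in place of 0.69, larger than that of 74.3%, and that of EGR1 was 0.42 in place of 0.86. The other 5 remained above at least 90.2% of the genes.

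**Figure D3:**
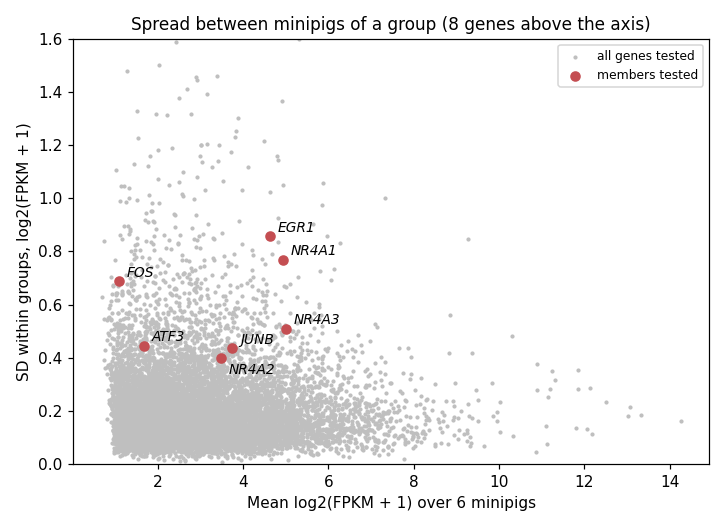
SD within the groups of log2(FPKM + 1) (vertical axis) against the mean log2(FPKM + 1) over the 6 minipigs (horizontal axis) for all genes tested (grey) and the 7 tested members (red). The members lie between 0.40 for NR4A2 and 0.86 for EGR1, above the median of 0.18 over all genes.

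In the sham group, 1 library stood above the others for most of these genes. Sham replicate 1 was the highest sham sample in 7 of the 8 listed genes and in 6 of the 7 tested ones, beside 34.3% of all genes tested. It was at least 1.5 times each other sham sample in 6 of the 8, namely NR4A1, NR4A3, FOS, FOSB, JUNB and EGR1, and in 5 of the 7 tested ones, beside 2.06% of all genes tested. The other 5 samples stood above their group by this margin in at most 1 of the 8 genes. That case was NR4A2 in DAC replicate 4, beside 2.82% of all genes tested. Sham replicates 2 and 3 and DAC replicates 5 and 6 did so in 0 of the 8, beside 2.49%, 2.19%, 2.05% and 3.88%. DAC replicate 4 was the highest of its group for NR4A2, FOS, JUNB, EGR1 and ATF3, beside 33.7% of all genes tested, and DAC replicate 6 for NR4A1 and NR4A3, beside 37.8%. In the low direction, DAC replicate 5 lay at least 1.5 times below both other DAC samples for NR4A1 and ATF3, beside 6.19% of all genes tested. Sham replicate 2 did so within its group for FOS and FOSB, beside 3.55%, and sham replicate 3 for NR4A1 and EGR1, beside 2.22%. The comparison of sham replicate 1 with the rest of its group was chosen after the values were seen, and what set this minipig or its tissue apart was not tested.

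**Figure D4:**
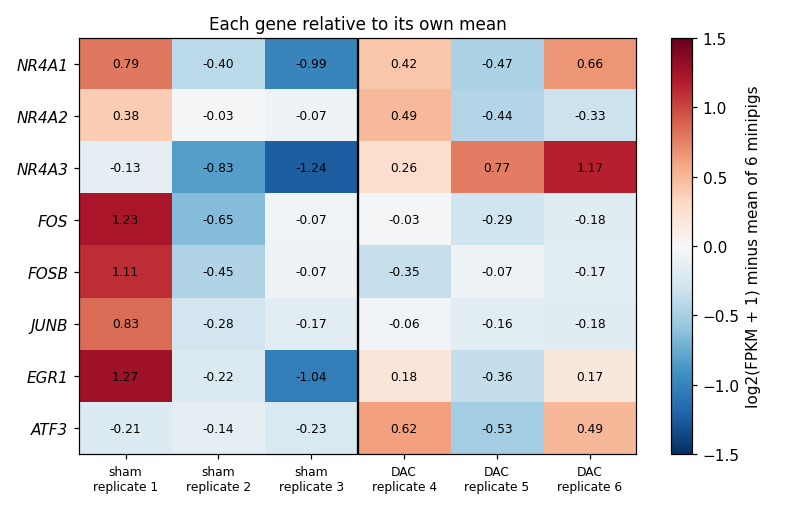
log2(FPKM + 1) of each listed gene (rows) in each minipig (columns) minus the mean of that gene over the 6 minipigs, as colour and number. FOS, FOSB, JUNB and EGR1 have their highest value in sham replicate 1, and NR4A3 has its 3 highest values in the DAC samples.

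The genes most like FOS and NR4A3 over the 6 samples were taken as those with the smallest root mean square difference from them, after each gene was centred on its mean log2(FPKM + 1). For FOS these were SLC25A44 (0.21), SMAD9 (0.22), SLC5A3 (0.23), IPP (0.23) and JUNB (0.23), where the median over all genes with a symbol was 0.60. JUNB was thus the fifth nearest to FOS among the tested genes with a symbol. Each of these genes had its highest value in sham replicate 1, such as 11.9 FPKM against 3.67 to 6.71 FPKM in the other samples for SLC5A3, a myo-inositol transporter. For NR4A3, the nearest gene was FN1 (0.29), which encodes the matrix protein fibronectin. FN1 was at 26.8, 21.5 and 16.2 FPKM in the sham samples and at 33.1, 45.2 and 51.0 FPKM in the DAC samples, the same order of the 6 minipigs as for NR4A3. CTNND2 (0.35), PRRG1 (0.37), PTGR2 (0.43) and LAPTM4B (0.45) followed, beside a median of 0.86. No other member was among the 5 genes nearest to NR4A3. All these genes were picked by likeness over the same 6 samples. The shared order and the shared high values in sham replicate 1 are therefore tied to the choice and are no separate result.

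Fibroblast markers were higher in the DAC group. All 8 markers of the list were present, none was at 0 in a sample, and 5 of the 8 were called higher in DAC by limma at an unadjusted P under 0.05, beside 3.25% of all genes tested. Their summed level was 482 to 555 FPKM in the sham samples and 688 to 780 FPKM in the DAC samples, so the groups did not overlap. Smooth muscle markers summed to 133 to 161 FPKM in the sham samples and to 160 to 180 FPKM in the DAC samples. Of the other tested markers, limma called 1 of 6 smooth muscle markers higher, 1 of 8 endothelial markers higher and 2 lower, 1 of 8 cardiomyocyte markers lower and 1 of 6 leukocyte markers lower. These counts stand beside 3.25% of all genes tested called higher and 5.27% called lower. The endothelial sums were 142 to 197 FPKM against 122 to 183 FPKM, and the leukocyte sums were 44.0 to 46.7 FPKM against 35.7 to 48.8 FPKM. Sham replicate 1, where FOS, FOSB, JUNB and EGR1 were high, had the lowest endothelial (142 FPKM) and smooth muscle (133 FPKM) sums of the sham group. Its cardiomyocyte (14420 FPKM), red blood cell (11.2 FPKM) and adipocyte (4.73 FPKM) sums were also the lowest of that group. Its leukocyte sum (46.7 FPKM) was the highest, and its fibroblast sum (548 FPKM) lay between those of the other sham samples. Of the red blood cell markers 2 of 6 and of the adipocyte markers 3 of 5 were listed, with sums that overlapped between the groups, and ALAS2, a red blood cell marker, was at 0 in at least 1 sample. The part of any of these cell types in the values of the 10 genes was not tested.

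Among the other AP-1 family leucine zipper factors that could be tested, those called different were lower in the DAC group. Of 8 tested relatives, 4 fell and 0 rose by limma at an unadjusted P under 0.05, beside 5.27% and 3.25% of all genes tested, and the median difference was -0.32. FOSL2, the FOS relative Fra-2 that outlasts FOS after a stimulus, was at 40.9, 38.7 and 48.6 FPKM in the sham samples and at 28.3, 23.1 and 29.0 FPKM in the DAC samples. The groups did not overlap, and the difference was -0.65 (standard error 0.14, adjusted P = 0.383 from limma). In every sample, the FOSL2 level was above those of FOS and FOSB. FOSL1, JUND and BATF had no row, so the family was covered only in part. JDP2, a repressor that dimerizes with JUN proteins, was at 13.6, 15.3 and 16.4 FPKM in the sham samples and at 7.33, 6.51 and 11.97 FPKM in the DAC samples, a difference of -0.78 (standard error 0.21). MAFF and MAFK, small MAF proteins without a transactivation domain, fell by 0.68 (standard error 0.18) and by 0.33 (standard error 0.12). All sham values of JDP2, MAFF and MAFK lay above all DAC values. The calls of FOSL2, JDP2 and MAFF stood under each of the 14 alternatives. The call of MAFK was lost without sham replicate 1 (difference -0.32), without sham replicate 3 and without DAC replicate 5.

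Among the other primary response genes, which are induced by growth factors or stress without new protein synthesis, 5 of 45 tested genes rose and 9 fell by limma at an unadjusted P under 0.05, beside 3.25% and 5.27% of all genes tested, and the median difference was -0.07. When no variance was shared between genes, 1 rose and 5 fell. SIK1, a kinase induced by cAMP signaling that restrains CREB coactivators, was at 41.0, 32.1 and 29.1 FPKM in the sham samples and at 12.6, 4.86 and 17.04 FPKM in the DAC samples. All DAC values lay below all sham values, and the difference was -1.62 (standard error 0.39, adjusted P = 0.482 from limma), between -1.96 and -1.15 with 1 sample left out. CEBPB, a leucine zipper factor of inflammation and metabolism, was at 85.5 ± 7.07 FPKM (SD, n = 3) in sham hearts and 54.0 ± 14.1 FPKM (SD, n = 3) in DAC hearts. BTG1, an antiproliferative gene, fell by 0.39 (standard error 0.12), and this call was lost without sham replicate 3. GADD45B, a stress-induced regulator of p38 and JNK signaling, fell by 0.50 (standard error 0.16). The genes that rose were TRIB1, CCL2, NFIL3, ZFP36L1 and DUSP4, named after their values were seen, with differences of 0.48 for DUSP4 to 0.91 for TRIB1. The call of each of these 5 was lost without at least 2 of the samples. The number of genes that rose was 2 to 7 with 1 sample left out, and it was 3 or fewer without any one of the samples except DAC replicate 5. The number that fell was 4 without sham replicate 3 and 6 to 9 without any other sample.

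**Figure D5:**
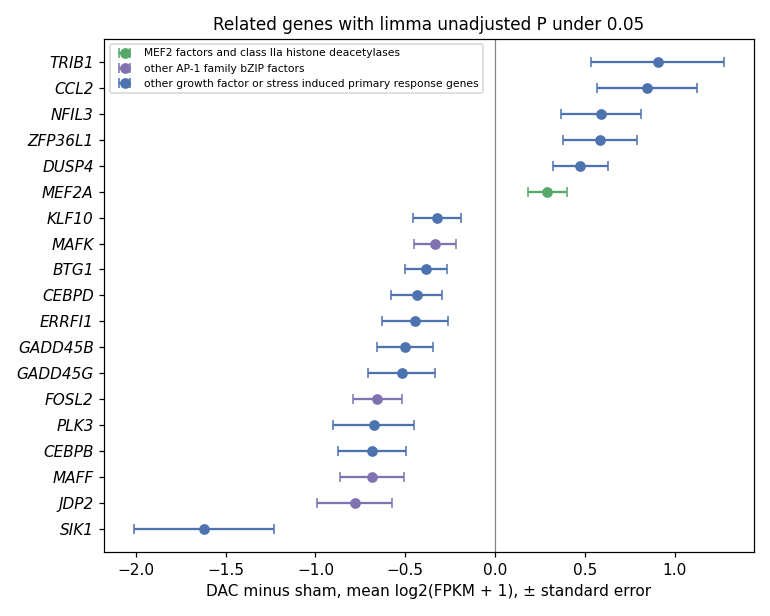
DAC minus sham difference of mean log2(FPKM + 1) (horizontal axis) for the 19 genes of the related lists with an unadjusted P under 0.05 from limma. Bars are 1 moderated standard error, and colours give the list. The differences run from -1.62 for SIK1 to 0.91 for TRIB1, with 13 genes lower and 6 higher in DAC. These are 11.9% and 5.5% of the 109 tested related genes, beside 5.27% and 3.25% of all genes tested.

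The high values of sham replicate 1 were shared by few of these relatives. Of 109 tested genes of all the related lists, 5 (4.59%) were at least 1.5 times each other sham sample there, beside 2.06% of all genes tested. They were EGR2, CSRNP1, NFIL3, ID2 and the CREB family gene CREM, named after their values were seen. EGR3, a relative of EGR1 that was listed but did not pass the filter and was also singled out after its values were seen, was at 1.87, 0.407 and 0.470 FPKM in the sham samples and at 0.738, 0.400 and 0.435 FPKM in the DAC samples. None of the 8 tested AP-1 relatives and none of the 11 tested heat shock genes, which respond to heat and protein damage, was high in sham replicate 1 by this margin. With a share of 2.06% over all genes tested, few would be found in lists this short, so nothing is read from their absence. HSPA1A and HSPA1B of the heat shock list had no row, so their levels in this minipig are not known.

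The other lists held factors and kinases that act upstream of immediate early genes, partners of NR4A receptors and heat shock genes. Of 3 tested EGR relatives and NAB corepressors, 6 genes for serum response factor and its cofactors, 8 of the CREB family, 18 MAP kinase pathway genes, 3 RXR partners of NR4A receptors and 11 heat shock genes, 0 were called in either direction by limma at an unadjusted P under 0.05, beside 8.51% of all genes tested. With 1 sample left out, up to 1 gene of the serum response factor list was called higher, and up to 1 of the CREB list in each direction. Of the heat shock list, up to 2 were then called higher and up to 1 lower. When no variance was shared between genes, 1 gene of the serum response factor list was called lower. SRF, the serum response factor itself, was at 36.7 ± 2.84 FPKM (SD, n = 3) in sham hearts and 31.6 ± 1.40 FPKM (SD, n = 3) in DAC hearts, a difference of -0.21 (standard error 0.10). MAPK3, the kinase ERK1, had a difference of -0.24 (standard error 0.13), and CRTC2, a CREB coactivator, of -0.18 (standard error 0.12). For NAB1, a corepressor of EGR proteins, the difference was 0.04 (standard error 0.12). RXRA, a heterodimer partner of NR4A1 and NR4A2, was at 16.7 ± 1.81 FPKM (SD, n = 3) and 14.7 ± 0.0312 FPKM (SD, n = 3), a difference of -0.18 (standard error 0.11), and HSPB1, a small heat shock protein, had a difference of -0.27 (standard error 0.14). Of the 7 genes for MEF2 factors and class IIa histone deacetylases, 1 rose, beside 3.25% of all genes tested. It was MEF2A, a member of a family of muscle transcription factors, at 29.8 ± 0.864 FPKM (SD, n = 3) in sham hearts and 36.8 ± 3.74 FPKM (SD, n = 3) in DAC hearts. The MEF2A difference was 0.29 (standard error 0.11), and its call was lost without any one of the samples except DAC replicate 5.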

How the data were processed

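RNA of 3 sham and 3 DAC minipigs was compared. The authors deposited 1 table of FPKM, made from paired-end Illumina reads of NEBNext Ultra libraries; the submitters' processing notes name HISAT2 and susScr11, and the program that computed FPKM is not given in the sources used here. Every listed gene reached 0.500 FPKM in its highest sample. No whole-read steps were visible, so the depth is unknown and precision rests on the spread between minipigs. Positions are those of the table, and all 8 listed members overlapped their RefSeq position on Sscrofa11.1. Of 2440 unnamed rows, 520 took their symbol from a list pairing Ensembl identifiers with names.

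Groups were compared with limma 3.58.1 in R 4.3.3, by its moderated test with a variance trend on log2(FPKM + 1), in genes that reached 1 FPKM in 3 or more of the 6 samples. Such differences understate the change of low genes. Genes were called at an unadjusted P under 0.05, as in the study, and P was adjusted by the Benjamini-Hochberg method over all genes tested. Plots were drawn with matplotlib 3.10.9 (Python 3.11.15). The fit was tested on simulated data. No batch is named in the labels.

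The members and the related lists were chosen with earlier results of these data known. The text names all members, up to 4 called genes with the smallest P of each related list (or the gene with the smallest P where none was called), and the 5 genes nearest to NR4A3 and to FOS over the 6 samples. Alternatives were other filters, scalings, a pseudocount and variance estimates, sample weights, mitochondrially encoded genes left out, and each sample left out.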

Additional observations from a re-analysis of the deposited data

How the results depend on the processing

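The number of tested members called was 1 higher and 0 lower under all 8 alternatives that kept the 6 samples, and NR4A3 was called under each of the 14 alternatives. With 1 sample left out, the number was 1 to 2 higher and 0 to 1 lower. The median difference of the members was then between -0.26 without sham replicate 3 and 0.38 without sham replicate 1. The NR4A3 difference was between 1.21 and 1.77, that of FOS between -0.74 and 0.20, and that of EGR1 between -0.53 and 0.63. Of the 109 tested related genes, 6 (5.5%) were called higher and 13 (11.9%) lower by limma at an unadjusted P under 0.05. The shares of all genes tested were 3.25% and 5.27%. When no variance was shared between genes, 2 were called higher, and the cause was not tested. With 1 sample left out, 2 to 8 were called higher and 7 to 14 lower. The lowest of these counts both came without sham replicate 3, and 3 were called higher without sham replicate 1, without DAC replicate 4 or without DAC replicate 6. The median SD of the members within the groups was between 0.49 and 0.62 under the other scalings and the pseudocount of 0.1. No scaling moved the median difference of all genes by over 0.1. No paired analysis was possible, because different minipigs were assigned at random to the groups and the labels name no pairs. With 3 minipigs a group and an unknown depth, a difference within the spread between minipigs was not detectable.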

Other observations

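MCL1, an inhibitor of cell death on the list of primary response genes, was listed at 0 in sham replicates 1 and 2 and in DAC replicate 4, and at 3.20 FPKM in sham replicate 3, 6.26 FPKM in DAC replicate 5 and 31.1 FPKM in DAC replicate 6. ATF7, a leucine zipper factor related to ATF2, was at 5.37 FPKM in sham replicate 2 and at 18.7 to 20.9 FPKM in the other samples. MAP2K7, a kinase that activates JNK, was at 12.1 FPKM in DAC replicate 5 and at 25.9 to 31.3 FPKM in the other samples. These 3 genes were singled out after their values were seen. Whether the MCL1 values of 0 stand for an absent transcript was not tested.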
